A study of Mus musculus with 272 samples.

Results

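The Trim43 genes of the mouse are a small family of nearly identical copies that encode tripartite motif (TRIM) proteins. Members were taken as every gene symbol of the deposited expression table that begins with Trim43, which gave 3 genes, Trim43a, Trim43b and Trim43c, of 15854 symbols in all. They were chosen by their levels in the transcriptome pools, as reads scaled to the library total (CPM), which were known to change between the 4-cell embryo and the blastocyst, so their levels across stages are given as a description and carry no test. Transcripts were measured at 8 stages: germinal vesicle (GV) oocytes, which are full of stored maternal RNA, metaphase II (MII) oocytes, zygotes, 2-cell, 4-cell and 8-cell embryos, morulae and blastocysts. At each stage 4 pools of 20 oocytes or embryos gave a transcriptome, and 3 lysates of about 100 were spun through a sucrose gradient and cut into 10 fractions, each sequenced by itself. Cycloheximide, which holds ribosomes on the transcript they are reading, was present in the lysis buffer and in the gradient at every stage. The labels give no strain, genotype or treatment that differs between stages, and nothing says which embryos came from separate females, so the spread between pools or gradients may be technical.

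TRIM proteins carry a RING domain, a B-box and a coiled coil, and many of them are E3 ubiquitin ligases, which tag other proteins for degradation or relocation. Human TRIM43, a relative expressed in cleavage embryos and induced by the embryonic factor DUX4, is known to act on pericentrin, a scaffold of the material around the centrioles. In a sucrose gradient, free transcripts stay near the top, while transcripts loaded with several ribosomes sink, so the position of a transcript is read as a measure of how heavily it is occupied by ribosomes.

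All 3 genes lie on chromosome 9 in RefSeq (GRCm38.p6), and each coding sequence spans 7 exons. The copies differ so little that the assignment of a read to 1 member rests on few bases. In the GENCODE M21 transcripts the coding sequences are 1338 bases long for Trim43a and Trim43b and 1341 for Trim43c. Trim43a and Trim43b are identical at 98.4% of aligned coding positions, Trim43b and Trim43c at 97.8%, and Trim43a and Trim43c at 96.9%. Of 1335 positions aligned without a gap in all 3, 46 vary, and Trim43c carries a base of its own at 25 of them, Trim43a at 17 and Trim43b at 4. The stretch shown covers coding bases 99 to 188, counted from the start codon, where 8 positions vary. It is shown because it holds the kind of difference that separates the copies, and capitals mark the variable positions.
Trim43a: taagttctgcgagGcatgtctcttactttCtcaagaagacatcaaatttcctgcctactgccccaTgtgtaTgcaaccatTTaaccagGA
Trim43b: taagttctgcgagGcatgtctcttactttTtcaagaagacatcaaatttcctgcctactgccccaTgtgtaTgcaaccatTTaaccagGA
Trim43c: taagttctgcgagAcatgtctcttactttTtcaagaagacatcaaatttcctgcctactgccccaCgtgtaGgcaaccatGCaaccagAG
In this stretch Trim43c has 7 bases of its own, Trim43a has 1 and Trim43b has none.

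How far reads of the sequenced length can tell the copies apart was measured on the transcripts. Of all windows of 150 bases, the length of 1 read, 96.8% in Trim43a, 94.0% in Trim43b and 78.9% in Trim43c occurred in no other annotated transcript. Windows shared within the family joined Trim43b with each of the other members, and none joined Trim43a with Trim43c. Most of the remaining windows of Trim43c were shared with 9330159M07Rik, an antisense gene that overlaps Trim43b and Trim43c. Reads of a gene and its antisense partner cannot be told apart without strand, and the strand setting of the counting is not given in the sources used here. 9330159M07Rik was low beside the family, at 13.4 ± 6.56 CPM (SD, n = 4) in morula pools against 1.09 ± 0.69 in blastocyst pools. Because the copies are this alike, the sum of the 3 members is the firmer quantity, and values of single members depend on how the authors' counting treated reads that match more than 1 copy.

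Pools held 11.8 to 25.2 M reads and the fractions of 4-cell embryos to blastocysts 0.178 to 44.0 M. Stage markers followed the labels in the pools. The summed level of 4 oocyte markers was 12897 to 14707 CPM in GV oocytes and 4.26 to 11.3 in blastocysts. The summed level of 5 genes of the 2-cell embryo was 1903 to 2639 CPM in 2-cell pools and at most 59.5 in the other stages. The trophectoderm markers, the genes of the outer cell layer of the blastocyst, reached 2168 to 2832 CPM in blastocyst pools.

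The family was nearly silent in oocytes and zygotes, appeared at the 2-cell stage, stayed high from the 4-cell stage to the morula and fell by the blastocyst. In 2-cell pools the summed level was 496, 469.6, 708 and 509 CPM. In 4-cell pools it was 3529, 3429.7, 3637 and 4686 CPM. In 8-cell pools it was 2752, 2693, 4281 and 4254 CPM. All 4-cell and 8-cell pools lay above all 2-cell pools, and the 4-cell and 8-cell pools overlapped. In morula pools the sum was 2348, 4939.9, 5928 and 4235 CPM, and in blastocyst pools it was 578, 531, 409.6 and 523 CPM. Among these stages the morulae varied most, with pool A the lowest of the morula pools, and no blastocyst pool reached the level of any morula pool.

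As means, the family sum was 8.16 ± 1.85 CPM in GV oocytes, 0.435 ± 0.193 in MII oocytes and 1.67 ± 0.372 in zygotes (SD, n = 4). It was 546 ± 109.6 CPM in 2-cell embryos, 3820.3 ± 583 in 4-cell embryos, 3495 ± 893 in 8-cell embryos, 4363 ± 1512 in morulae and 510.4 ± 71.5 in blastocysts (SD, n = 4). The sum was thus 326 times as high in 2-cell embryos as in zygotes and 7.002 times as high in 4-cell as in 2-cell embryos, and 8.55-fold lower in blastocysts than in morulae. In ascending order the stages stood as MII oocyte, zygote, GV oocyte, blastocyst, 2-cell, 8-cell, 4-cell and morula. Blastocyst and 2-cell pools overlapped, as did the pools of the last 3 stages in this order, while every other pair of neighbours was apart. These levels are parts of the library total, so the fall between morula and blastocyst is one of a part and not of an amount of RNA. The number of cells that hold the transcripts and the RNA per cell were not measured in bulk pools, and their part was not tested.

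**Figure D1:**
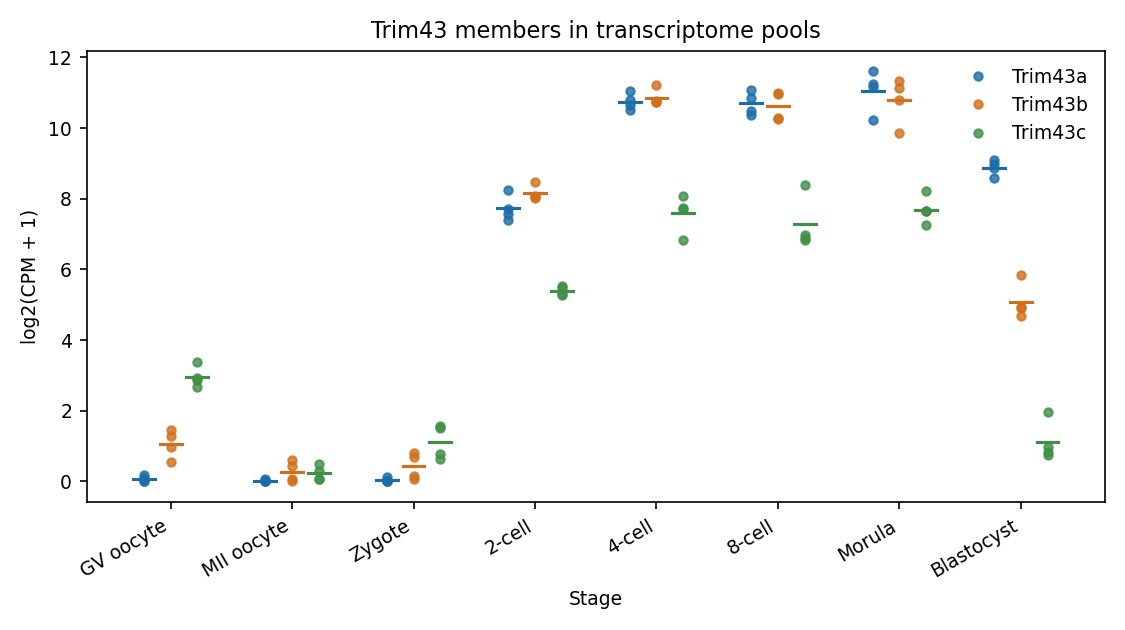
Level of each Trim43 member in transcriptome pools, as log2(CPM + 1), by stage. Points are the 4 pools of a stage and bars their means; all 3 members are high from the 4-cell stage to the morula, and in blastocysts Trim43a stays at a mean of 474 CPM while Trim43c is at 1.33.

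The fall to the blastocyst was unequal among the copies. Trim43a was at 1212, 2414, 3123 and 2298 CPM in morula pools and at 548, 501, 384 and 464 CPM in blastocyst pools. Trim43b was at 937, 2231, 2603 and 1784 CPM in morula pools and at 29.5, 28.8, 24.4 and 55.9 CPM in blastocyst pools. Trim43c was at 199, 295, 202 and 153 CPM in morula pools and at 0.771, 0.952, 0.667 and 2.93 CPM in blastocyst pools. For each member every blastocyst pool lay below every morula pool, and the mean was 4.77-fold lower for Trim43a, 54.5-fold lower for Trim43b and 159.5-fold lower for Trim43c. Trim43c in blastocysts rested on 16 to 48 reads per pool, and blastocyst pool D held the highest values of both Trim43b and Trim43c. Without pool D the mean of Trim43c was 266-fold lower in blastocysts than in morulae, so its size depends on that pool.

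Corrected for transcript length, Trim43c was the minor copy from the 2-cell stage on, and Trim43a and Trim43b changed places. The lengths were those of GENCODE M21 transcripts, 1981 bases for Trim43a and 2262 for Trim43b, from a build other than that of the counting. Without the correction Trim43b lay above Trim43a in 4-cell pools A, B and D and in 8-cell pool D, so the order there depends on these lengths. Per kilobase of transcript, 4-cell pools held 878 ± 143 CPM of Trim43a, 831 ± 144 of Trim43b and 101 ± 32.2 of Trim43c (SD, n = 4). In morula pools these levels were 1142 ± 398, 835 ± 317 and 107 ± 29.8 CPM per kilobase, and in blastocyst pools 239 ± 34.9, 15.3 ± 6.33 and 0.668 ± 0.539. Both copies were measured in the same pools, so they were compared within each. Per length Trim43a lay below Trim43b in 4 of 4 pools of 2-cell embryos, above it in 3 of 4 pools of the 4-cell stage, and above it in 4 of 4 pools at the 8-cell stage, of morulae and of blastocysts. The mean difference, Trim43a minus Trim43b, was -17.3 ± 13.04 CPM per kilobase in 2-cell pools, 46.9 ± 68.0 in 4-cell pools, 136 ± 80.02 in 8-cell pools and 307 ± 109 in morula pools (SD, n = 4).

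The few reads in oocytes came mainly from Trim43c. Trim43c was at 6.38, 5.38, 9.47 and 6.58 CPM in the 4 GV pools, Trim43b at 0.460, 1.75, 1.44 and 0.972, and Trim43a had 0 to 2 reads. Trim43c therefore made 85.0 ± 6.77% of the family sum in GV oocytes (SD, n = 4), where Trim43a made 0.717 ± 0.907%. In MII oocytes the whole family had 3 to 13 reads per pool and in zygotes 28 to 37, too few to order the members. Reads carry no molecular identifiers here, so such small counts carry counting error only as a lower limit of their true error.

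The make-up of the family sum moved little between the 4-cell embryo and the morula and then turned over. Trim43a made 45.6, 42.3, 49.2 and 45.0% of the sum in 4-cell pools and 51.8, 49.1, 50.6 and 43.9% in 8-cell pools. Trim43b made 48.4, 49.9, 47.7 and 50.6% in 4-cell pools and 44.1, 46.5, 46.5 and 48.3% in 8-cell pools. The ranges of these stages overlapped for both copies. The share of Trim43b was 49.1 ± 1.31% at the 4-cell stage, 46.3 ± 1.72% at the 8-cell stage and 42.8 ± 2.28% for morulae (SD, n = 4).

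The share of Trim43b was thus lower by 2.79 percentage points at the 8-cell than at the 4-cell stage and by 3.55 in morulae than at the 8-cell stage, and that of Trim43a was higher by 3.31 and by 3.02 points. Neighbouring stages overlapped for every copy in both steps. These shares come from the pool values by which the family was chosen, so they are described without a test. Between morulae and blastocysts the change was larger. Trim43a made 48.9 to 54.3% of the sum in morula pools and 88.8 to 94.8% in blastocyst pools, Trim43b 39.9 to 45.2% against 5.10 to 10.7%, and Trim43c 3.41 to 8.47% against 0.133 to 0.560%, so the pools of these stages did not overlap for any copy.

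**Figure D2:**
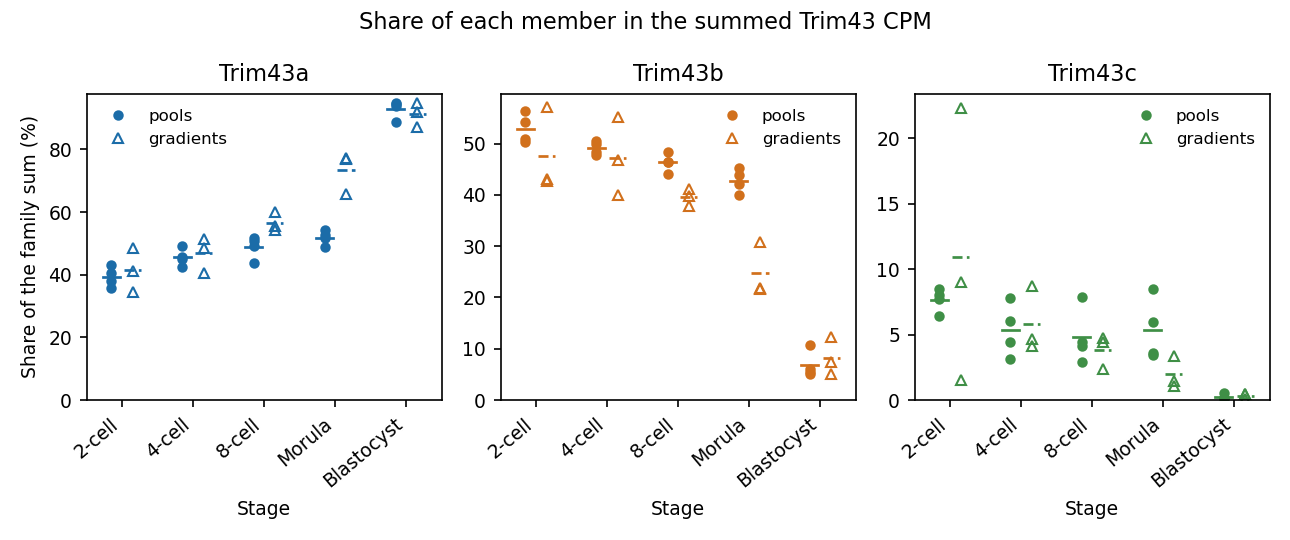
Share of each member in the summed Trim43 CPM (%), by stage, in transcriptome pools (filled points, n = 4) and in gradients (open triangles, mean of 10 fractions, n = 3); bars are means and each panel has its own vertical scale. In morulae the gradients lie above the pools for Trim43a (73.3% against 51.9% on average) and below them for Trim43b and Trim43c, while in blastocysts pools and gradients overlap.

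The gradients gave a second, separately prepared view of the family. Averaged over 10 fractions, the family sum was 525, 1250.2 and 1297 CPM in the 4-cell gradients A, B and C. It was 1428, 3139.8 and 1653 CPM in the 8-cell gradients, 1604, 1205 and 1214 in the morula gradients, and 434, 627 and 425 in the blastocyst gradients. As in the pools, 8-cell embryos and morulae held more than blastocysts in every gradient. The 4-cell stage did not follow the pools, since its gradient A lay below blastocyst gradient B. The highest mean over gradients was that of the 8-cell stage, at 2073 CPM, while in pools it was that of morulae. The lowest morula gradient was at 1205 CPM and the highest blastocyst gradient at 627. The fall was smaller than in the pools, from a mean of 1341 CPM in morula gradients to 495 in blastocyst gradients. By copy, these means fell from 973 to 450 CPM for Trim43a, from 340 to 43.7 for Trim43b and from 28.3 to 1.76 for Trim43c. The mean over gradients was 0.196 of the pool mean at the 2-cell stage and 0.268 at the 4-cell stage. It was 0.593 of it at the 8-cell stage, 0.307 in morulae and 0.970 in blastocysts. Gradients and pools were apart at the 2-cell stage, the 4-cell stage and in morulae, and overlapped at the 8-cell stage and in blastocysts. The summed oocyte markers also differed, at 495 to 721 CPM in 4-cell gradients against 35.4 to 55.7 CPM in 4-cell pools, and their part in the lower family level was not tested.

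In morulae the gradients also differed from the pools in the make-up of the family. Trim43a made 65.8, 77.3 and 76.8% of the sum in morula gradients A, B and C, against 51.6, 48.9, 52.7 and 54.3% in the morula pools. Trim43b made 30.8, 21.6 and 21.8% in the gradients against 39.9 to 45.2% in the pools, and Trim43c 3.37, 1.10 and 1.44% against 3.41 to 8.47%. For each copy no gradient overlapped any pool, so the morula gradients stood between the morula pools and the blastocyst pools. In 8-cell embryos the gradients lay on the same side for 2 copies, with Trim43a at 56.6 ± 2.91% (SD, n = 3) against 48.8 ± 3.499% (SD, n = 4) and Trim43b at 39.6 ± 1.73% against 46.3 ± 1.72%. In 4-cell embryos and blastocysts gradients and pools overlapped for all copies. In the 5 comparisons without overlap the two-sided exact permutation p was 0.0571, the smallest that 3 against 4 allow. After Benjamini-Hochberg adjustment over 12 comparisons it was 0.137. No comparison of this size could fall under 0.05, so the test could not decide, and these shares are given as a description.

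Marker levels also differed between gradients and pools, at these stages and at others. Of 7 trophectoderm markers 6 were measured, and their sum was 208 to 278 CPM in morula pools and 744, 1365 and 1106 CPM in morula gradients A, B and C. Gradient A, which had the lowest marker sum of the 3, also had the lowest share of Trim43a. The 8-cell gradients did not follow this: gradient C had the lowest marker sum, at 312 CPM, and the highest share of Trim43a, at 59.9%. Among the 6, Cdx2, the regulator that defines the trophectoderm, was at 4.16 to 14.3 CPM in morula pools and at 120 to 188 in morula gradients, and no marker of the 6 was at 0 in them. Krt8, Krt18 and Gata3 were also higher in every morula gradient than in any morula pool. Tead4, at 81.9 to 127 CPM in pools and 108 to 124 in gradients, and Eomes, at 0.608 to 2.31 and 0.637 to 2.94, overlapped. In 8-cell embryos the same sum was 104 to 155 CPM in pools and 312 to 346 in gradients, most of it Tead4, at 80.5 to 128 and 244 to 290. The sum of 6 inner cell mass markers was 232 to 293 CPM in morula pools and 763 to 997 in morula gradients, with Pou5f1, a pluripotency regulator, at 23.1 to 50.4 against 570 to 798 CPM, Gata6, a regulator of primitive endoderm, the other way at 153 to 200 against 25.1 to 52.6, and Sox2 at 0 in at least 1 pool. Oocyte markers, of the earliest stages, were higher in gradients as well, at 272 to 381 against 31.7 to 39.9 CPM in pools at the 8-cell stage and at 27.04 to 55.6 against 16.5 to 24.2 in morulae. Where the shares overlapped, marker sums differed too: the trophectoderm sum of blastocysts was 2168 to 2832 CPM in pools and 3300 to 4764 in gradients. There Cdx2 and Krt18 were higher in gradients, while Krt8 and Tead4 overlapped. Gata3 went the other way, at 132 to 186 CPM in pools and 38.3 to 56.8 in gradients, as did Eomes, at 16.4 to 26.4 and 3.76 to 10.8. The inner cell mass sum at the 4-cell stage was 89.0 to 121 in pools and 449.9 to 549 in gradients. The part of these differences in the shares of the copies was not tested.

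**Figure D3:**
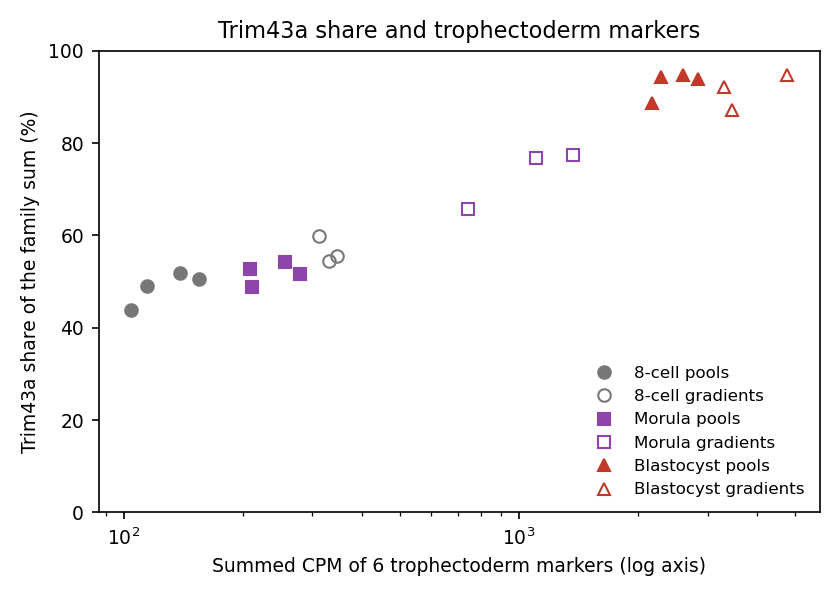
Trim43a share of the family sum (%, vertical axis) against the summed CPM of 6 trophectoderm markers (horizontal log axis) in 8-cell, morula and blastocyst pools (filled) and gradients (open). Morula gradients, at 744 to 1365 CPM of the markers and 65.8 to 77.3% Trim43a, lie between the morula pools and the blastocyst samples.

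Along the gradient, the family transcripts were spread over all 10 fractions from the 4-cell stage on. In 4-cell gradients the mean of the sum was highest in fraction 3, at 1992 ± 731 CPM, and lowest in fraction 7, at 433 ± 469 (SD, n = 3). In 8-cell gradients it was highest in fraction 10, at 3636 ± 960.0 CPM, and lowest in fraction 1, at 872 ± 304. In morula gradients it was highest in fraction 10, at 2793 ± 775 CPM, and lowest in fraction 5, at 739 ± 228. Fraction 1 of morulae was at 1643 ± 570.03 CPM on average, but in gradient A it was at 992, below that gradient's mean of 1604. The mean blastocyst profile ran from 823 ± 355 CPM in fraction 1 over 341 ± 67.3 in fraction 5 to 512 ± 146 in fraction 10. Fraction 10 lay above the gradient's own mean in blastocyst gradient A, at 612 against 434 CPM. It lay below it in gradient B, at 580 against 627, and in gradient C, at 344 against 425. The 4-cell gradient A was patchy, with 4.78 CPM in fraction 4 between 1676 in fraction 3 and 1196 in fraction 5, and with 26.1 and 6.88 CPM in fractions 6 and 7.

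**Figure D4:**
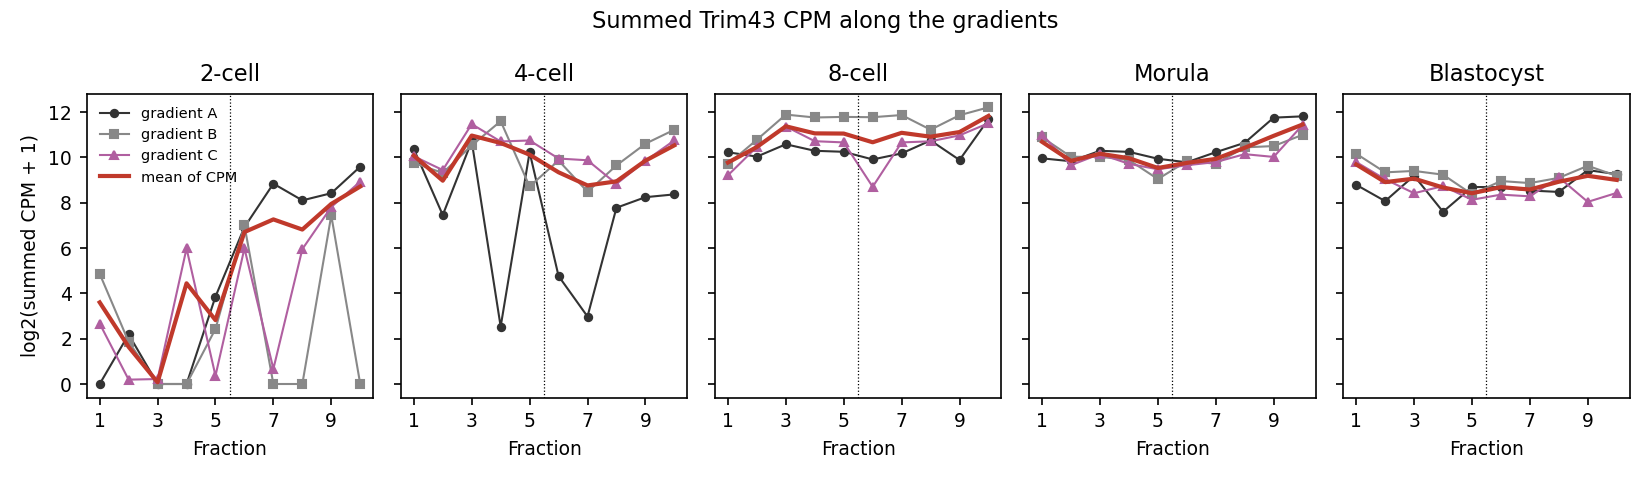
Summed Trim43 CPM, as log2(CPM + 1), in fractions 1 to 10 of the 3 gradients of each stage from 2-cell to blastocyst; thin lines are gradients, the thick line is the log of their mean CPM and the dotted line divides the light from the heavy side. In 2-cell embryos 11 of the 15 heavy fractions and 3 of the 15 light ones hold at least 10 CPM, and in gradient B the heavy fractions 7, 8 and 10 are at 0, while in the later stages it runs through all fractions.

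Position was summarised as the heavy side minus the light side, the difference of log2(CPM + 1) between the mean of fractions 6 to 10 and that of fractions 1 to 5. Every fraction was scaled to its own total, so a position says where a transcript takes a larger part of the RNA, and no amount of RNA per fraction enters it. A position was called when limma's test gave a Benjamini-Hochberg adjusted p under 0.05 over 15172 genes and the difference was at least 1. Fits ran over all 8 stages, which share 1 estimate of the spread.

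In 2-cell embryos the family was concentrated on the heavy side. This position was not among those planned and was added after its values were seen, so its p-values are not those of a planned test. On simulated data the limma fit also called more unchanged genes than its threshold states. The heavy and light means of the sum were 392.1 and 3.41 CPM in gradient A, 60.0 and 7.01 in gradient B and 167 and 13.6 in gradient C. The heavy side was the higher one in 3 of 3 gradients, by 6.48, 2.93 and 3.52 on the log2 scale. The mean difference was 4.31 (SE 0.67), with a limma adjusted p of 1.28e-05 (Benjamini-Hochberg), and 0.422% of the genes tested had a larger one. At this stage 6.43% of all genes were called on the heavy side.

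Among the single copies, 2 of 3 were called on the heavy side of 2-cell gradients. For Trim43a the heavy minus light difference was 4.48 (SE 0.66, limma adjusted p = 5.46e-06), and for Trim43b 4.66 (SE 0.74, limma adjusted p = 1.79e-05). Trim43c had a difference of 2.78 (SE 1.04) that was not called, with a limma adjusted p of 0.0575. With the gradient as a replicate block, which pairs the sides of 1 lysate, Trim43c was called too (limma adjusted p = 0.0323). Of 16 alternatives 6 called it, and its difference ran from 0.80 with means of log values to 5.11 with edgeR. Without gradient B it was 4.38 and called (limma adjusted p = 0.0123), and without gradient A it was 1.67 and not called. Gradient B held almost no Trim43c, at 0.302 CPM on the heavy and 0.748 on the light side.

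The 2-cell values rest on few positive fractions. The sum had 0 reads in 3 fractions of gradient A and in 5 of gradient B, and 3 of those in gradient B lay on the heavy side. In gradient B the heavy side rested on fraction 6, at 127 CPM, and on fraction 9, at 173. In gradient A fractions 6 to 10 held 120, 457, 274, 341 and 769 CPM, and in gradient C 62.4, 0.589, 60.8, 223 and 486. Fraction 10 was thus the highest of gradients A and C and empty in gradient B. In a fit on 2-cell gradients alone, the difference of the sum was the same and its adjusted p was 0.0535, which ends the call (limma, SE 0.92). On the reads behind the CPM values, edgeR's quasi-likelihood test gave a difference of 4.93 with an adjusted p of 0.00241.

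From the 4-cell stage on, neither the heavy nor the light side was called for the sum or for any copy. In 4-cell gradients A, B and C the heavy means of the sum were 176, 1203.5 and 1002 CPM and the light means 874, 1297 and 1591. In 8-cell gradients the heavy means were 1609.6, 3608 and 1722 CPM and the light means 1246, 2672 and 1584. In morula gradients the heavy means were 2141, 1324 and 1321 CPM and the light means 1068, 1087 and 1108. The light side was the higher one in 3 of 3 gradients of the 4-cell stage, and the heavy side in 3 of 3 at the 8-cell stage and in 3 of 3 from morulae. In blastocyst gradients the heavy means were 488, 575 and 359 CPM and the light means 379, 679 and 490.5, so the gradients disagreed on the side.

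As differences on the log2 scale these positions were -1.03 at the 4-cell stage, 0.31 at the 8-cell stage, 0.51 for morulae and -0.11 for blastocysts, each with an SE of 0.67. The limma adjusted p values were 0.336, 0.940, 0.875 and 1. The share of genes called on either side was 16.3% at the 4-cell stage, 9.05% at the 8-cell stage, 5.81% for morulae and 2.74% for blastocysts. Without the patchy gradient A the 4-cell value was -0.39. With 3 gradients a stage, differences of this size were not detectable, so these p values do not show an even spread over the gradient. Trim43b, with a difference of 0.62 at the 8-cell stage, 0.82 for morulae and 0.24 for blastocysts, was at or above 0 in all 9 of these gradients, and none was called.

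**Figure D5:**
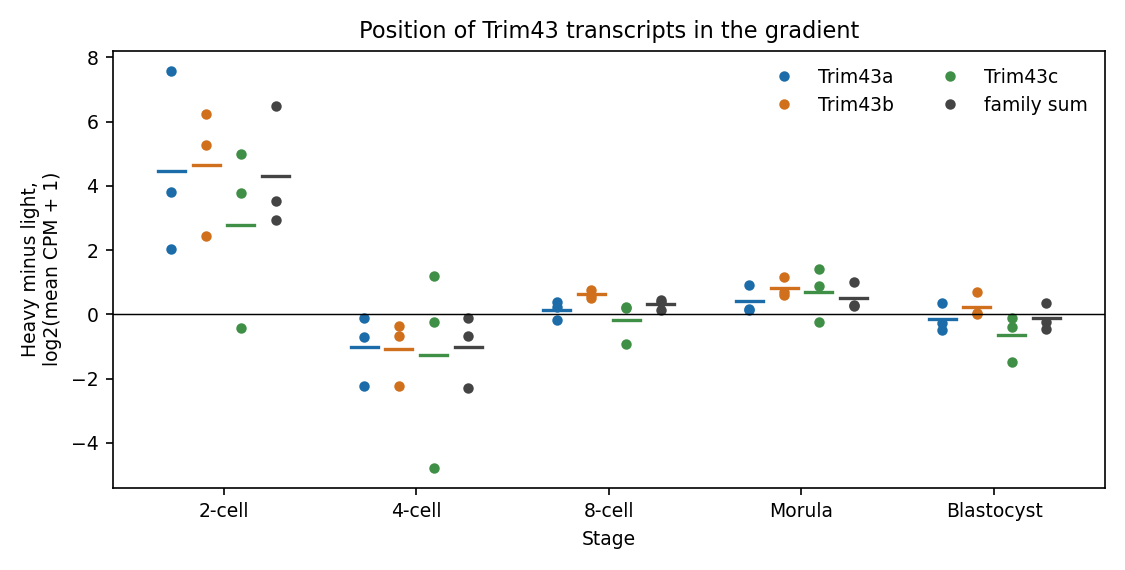
Heavy minus light difference of each Trim43 member and of the family sum, in log2(mean CPM + 1), by stage; points are the 3 gradients and bars their means. All 3 gradients of the sum are above 0 in 2-cell embryos (mean 4.31) and below 0 in 4-cell embryos (mean -1.03). Its later means are 0.31 in 8-cell embryos, 0.51 in morulae and -0.11 in blastocysts. There the single gradients of the sum run from -0.45 in a blastocyst gradient to 1.00 in a morula gradient.

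The position changed between the 2-cell and the 4-cell stage. The test of this step was likewise unplanned and added after its values were seen. The heavy minus light difference of the sum fell by 5.33 from 4.31 to -1.03 (SE 0.95, limma adjusted p = 0.000236), and no 4-cell gradient overlapped a 2-cell gradient. At this step 7.23% of all genes were called with a fall. Trim43a, whose difference fell by 5.498, and Trim43b, whose difference fell by 5.74, were called as well (limma adjusted p = 0.000129 and 0.000301), and Trim43c, with a change of -4.06, was not (limma adjusted p = 0.0652). The family sum in transcriptome pools was 7.002 times as high at the 4-cell as at the 2-cell stage, so the heavy position came before the higher levels. Position and pool level come from separate preparations. In the gradients themselves the mean sum was 107 CPM at the 2-cell and 1024 CPM at the 4-cell stage. In a fit on these 2 stages alone the adjusted p of the change of the sum was 0.0908, which ends the call (limma, SE 1.19), and edgeR's test gave a change of -5.55 with an adjusted p of 0.00709. Without gradient A the change of the sum was -3.61, the smallest of the fits that leave out 1 gradient letter, with a limma adjusted p of 0.0170.

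The later steps showed no called change of position for the sum. From the 4-cell to the 8-cell stage the difference was higher by 1.33 (SE 0.95, limma adjusted p = 0.540), where 2.47% of genes were called in either direction, and without gradient A it was higher by 0.66. From the 8-cell stage to the morula the change was 0.21 and from the morula to the blastocyst -0.62, each with a limma adjusted p of 1, and 0.534% and 0.0198% of genes were called.

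Genes with a stage profile like that of the family sum were ranked by Pearson's r over the 8 stage means of log2(CPM + 1) in transcriptome pools, among 10766 genes. The correlation is a description over 8 points from shared libraries. The closest were Gm12625 (r = 0.997), Haus2 (0.993), Gcsh (0.992), Cited1 (0.992), Nop16 (0.991), Tatdn1 (0.991), Osbpl6 (0.990) and Arf2 (0.990). Haus2 encodes a subunit of augmin, which seeds microtubules in the spindle, Gcsh a carrier protein of the glycine cleavage system, and Cited1 a transcriptional co-regulator. Haus2 was at 0.158 ± 0.166 CPM in zygotes, 186 ± 7.23 in 4-cell embryos and 55.6 ± 11.95 in blastocysts (SD, n = 4). By the same measure Trim43a and Trim43b had an r of 0.959, Trim43b and Trim43c 0.924, and Trim43a and Trim43c 0.788.

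The timing of the Trim43 copies was set beside that of 44 other Trim genes in the transcriptome pools. From the 2-cell to the 4-cell stage, where the family sum was 7.002 times as high, 10 of these 44 rose and 15 fell (limma, Benjamini-Hochberg adjusted p under 0.05 and a change of at least 1), with 31.8% of all 14642 genes called higher and 32.9% lower. Their median change was -0.58, against 0.02 over all genes. Trim28, a corepressor that acts with zinc finger proteins, rose by 3.84 and Trim25, a ubiquitin ligase of antiviral signalling, by 3.47 on the log2 scale, while Trim61 fell by 7.93 and Trim15 fell by 6.93. From the 4-cell to the 8-cell stage 0 rose and 2 fell, Trim61 by 1.31 and Trim13 by 1.14, where 0.451% and 2.14% of all genes were called.

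Between morula and blastocyst, where all Trim43 copies were lower, 10 of the 44 other Trim genes rose and 1 fell. As shares these are 22.7% and 2.27%, beside 18.8% of all genes called higher and 7.97% lower, so the share that rose was near that of all genes. Trim25 rose by 2.21 and Trim2, a ubiquitin ligase studied in neurons, by 2.01, and Trim12c fell by 1.15 on the log2 scale. The median change of the 44 was 0.14 and that of all genes 0.16. From the 8-cell stage to the morula 3 rose and 0 fell (8.18% and 3.7% of all genes), among them Trim38 by 3.03 and Trim32 by 1.74.

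For the position in the gradient, 48 other Trim genes were tested. In 2-cell gradients 3 were called on the heavy side and 8 on the light side (6.43% and 11.8% of all genes), with Trim59 at 3.14 and Trim44 at 2.68 heavy, below the 4.31 of the Trim43 sum, and Trim62 at -3.48 and Trim46 at -3.09. In 4-cell gradients 1 was heavy, Trim28 at 1.49, and 4 were light, led by Trim13 at -5.65 (3.4% and 12.9% of all genes). In 8-cell gradients 0 were heavy and 4 light, led by Trim46 at -3.78, and in morula gradients 1 was heavy, Trim38 at 1.92, and 3 were light, led by Trim46 at -3.68. By limma 2.43% of all genes were heavy and 6.62% light in 8-cell embryos, and 1.64% and 4.17% in morulae. With edgeR's test the calls of other Trim genes on either side numbered 2 in 8-cell embryos and 0 in morulae. The share of all genes called by edgeR is not given here, so these counts have no background.

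Because the human relative acts on pericentrin, 22 genes of the centrosome and the material around it were described. From the 2-cell to the 4-cell stage 6 rose and 8 fell, beside 31.8% and 32.9% of all genes. Pcnt, which encodes pericentrin, rose by 2.88 on the log2 scale, from 14.4 ± 3.58 CPM in 2-cell pools to 111 ± 13.01 in 4-cell pools (SD, n = 4; limma adjusted p = 2.39e-17). Cep63, a gene of centriole duplication, rose by 3.26, and Plk4, the kinase that starts centriole duplication, fell by 3.17. Pcnt was not called in the later steps, with changes of -0.45, -0.63 and 0.21 on to the blastocyst. From morula to blastocyst 2 of the 22 rose and 2 fell, 9.09% each, beside 18.8% of all genes called higher and 7.97% lower. Cep164 had the larger rise, at 1.99, and Nin the larger fall, at -2.28. At each stage from 4-cell to blastocyst Pcnt was called on neither side of the gradient, with heavy minus light differences of -0.49, 0.06, -0.79 and -1.58.

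Upstream of the genes, RefSeq promoters (GRCm38.p6, 250 bases before to 50 after the start) were at hand for Trim43a, 1 of the 3 members. Of 8 motifs searched on both strands, the bicoid-type homeobox core GGATTA matched once, at base 43 after the start on the minus strand, and 7.06% of 32851 promoters hold it. The other 7 were the TATA box TATAAA, the CCAAT box, the nuclear receptor half-site AAGGTCA, the AP-2 motif GCCNNNGGC, the GC box GGGCGG, the GATA motif AGATAA and the Dux-type motif, and none gave a match in this window. They occur in 0.0335 to 37.4% of all promoters. A match is only a run of letters and no site of binding was measured.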

How the data were processed

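The members, the gene lists and the tests were chosen with earlier results of these data known. Per the submitters' processing notes, Trim Galore 0.6.7, FastQC, HISAT2 2.2.1, featureCounts 2.0.1 and edgeR were used with build GRCm39, and the treatment of reads that match several copies is not given in the sources used here. The authors deposited 1 table of CPM values (counts per 1 M reads, no length scaling) for 15854 symbols in 272 libraries, 32 of pools and 240 of fractions. In all 272 libraries 100% of the values were whole multiples of 1 read, within 0.05 reads, so read counts could be recovered. In 9 columns that sum to more than CPM allows because of repeated rows, recorded as a signal, the deposited values are the same CPM. Of 76 groups of identical symbols 1 symbol each was kept, which left 15771 rows, and no Trim43 member was among them. The columns of the 2-cell pools are lettered E to H, unlike their labels (A to D), and the column letters are used.

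The sum of the 3 members entered the table as a row of its own. For each gradient the CPM of fractions 6 to 10 (heavy) and 1 to 5 (light) were averaged with equal weight. limma 3.58.1 in R 4.3.3 (lmFit, eBayes with a trend) was run on log2(CPM + 1), a scale that understates changes of low genes, over all 8 stages. Genes needed a CPM of 1 in 3 means or 4 pools. A call needed a Benjamini-Hochberg adjusted p under 0.05 and a change of 1. edgeR 4.0.16 and DESeq2 1.42.0 were run on recovered reads as alternatives, without fraction 7 of the 2-cell gradient B. Tested on simulated data, the position fit of limma called more unchanged genes than its threshold states, DESeq2 did too, edgeR called very few, and all 3 missed most 4-fold differences. The position calls on single genes should be read with this in mind, and edgeR's values stand beside those of the Trim43 sum.

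The heavy and the light side of a gradient come from 1 lysate by the labels and so are paired. The correlation of their deviations was 0.00798 to 0.253 over 24 gradients, and 24 of 24 sides correlated best with the other side of their own letter. The plan covered positions of the sum from the 4-cell stage to the blastocyst. The 2-cell position, the step from 2-cell to 4-cell, and the shares of gradients against pools were added after the values were seen. Planned exact permutation tests of the shares between stages are not used, since the shares come from the pool values that chose the family; the one from morula to blastocyst was not run, and among the 6 run the lowest adjusted p was 0.171. Named were all members, the 2 other Trim genes with the largest called rise and the 2 with the largest fall in each comparison (fewer are printed where noted by "led by"), Pcnt and the pericentriolar gene with the largest called rise and fall, and the 8 genes most like the sum. The marker genes named were chosen after their values were seen. Transcripts came from GENCODE M21 and promoters from RefSeq GRCm38.p6, a build other than the files', so no coordinates are given. Alternatives were the replicate block, the stages in the fit, pseudocounts of 0.5 and 5, no filter, other fraction sides, means of log values, quantile normalization, CPM without ribosomal RNA, and leaving out each replicate.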

Additional observations from a re-analysis of the deposited data

Results flagged for a closer look

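Among 35 groups of 4 pools, 10 had 1 pool far from the other 3 (gap over range above Dixon's critical value), where chance gives about 1 in 20. The 10 values come from 4 pools and many share reads, so they are not independent. In 2-cell pool G, Trim43b was at 357 CPM and the family sum at 708 CPM. In 4-cell pool D, Trim43b was at 2369 CPM and the sum at 4686 CPM. In 8-cell pool D, Trim43c was at 335 CPM, against 114 to 124 CPM in the other 3.

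Blastocyst pool D stood apart in 5 values. Trim43b was at 55.9 CPM and Trim43c at 2.93 CPM, and the shares of the family sum were 88.8% for Trim43a, 10.7% for Trim43b and 0.560% for Trim43c. This pool is the blastocyst pool whose make-up lies closest to that of the morulae, and it also had the lowest trophectoderm marker sum of the blastocyst pools, at 2168 CPM; its part in these values was not tested.

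The position in the gradient differed between 2-cell and 4-cell embryos by the test of the change itself. The change of the heavy minus light difference was -5.74 for Trim43b, -5.498 for Trim43a and -5.33 for the family sum.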

How the results depend on the processing

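Of the alternatives run, 15 of 16 kept the 2-cell heavy call of the sum and 15 of 16 the fall from 2-cell to 4-cell. Both calls ended with only the compared stages in the fit, at 4.31 (limma adjusted p = 0.0535) and -5.33 (adjusted p = 0.0908), as did those of Trim43a (0.0945) and Trim43b (0.0648) at the 2-cell stage. In that fit fewer samples set the spread, and those of the 2-cell stage were among the most variable. The heavy minus light difference of the sum had an SD of 1.90 over 2-cell gradients and 2.46 over GV gradients (n = 3). At the other stages its SD was 0.0995 to 1.14, so the fit over all 8 stages gave the 2-cell stage a smaller spread than its own. The part of each in the lost calls was not tested. Without 1 gradient letter the values ran from 3.22 to 5.00 and from -6.48 to -3.61. A fit on the 2-cell to blastocyst stages, added after seeing the data, kept both (adjusted p = 1.92e-05 and 0.000313).

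With the replicate block the 2-cell sum stayed at 4.31 (limma adjusted p = 0.000103) and Trim43c was called at 2.78, as under 5 other alternatives; no other position of the sum or of a copy changed its call. By letter, the deviations of pools of neighbouring stages correlated at -0.171 to 0.167, and in no step were all letters over 0.1, so pools were not treated as paired. In all, 7 of 24 pools correlated best with their own letter, 4 of them in the step from 4-cell to 8-cell (4 of 4, at 0.0462 to 0.101), a hint from the data and not from the labels.

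Some uncalled positions changed sign, and the cause was not tested. The farthest from 0 of these was 4-cell Trim43c, at -1.28 as reported by limma over all stages; the others lay within 0.5 of 0. With DESeq2 the values were -0.062 for the 8-cell sum, -0.21 for Trim43a and 0.067 for Trim43c at the 8-cell stage, 0.22 for the blastocyst sum, 0.20 for blastocyst Trim43a and 0.58 for 4-cell Trim43c. With edgeR they were -0.0052 for 8-cell Trim43a, 0.27 for 8-cell Trim43c, 0.18 for the blastocyst sum, 0.15 for blastocyst Trim43a and 0.87 for 4-cell Trim43c. Quantile normalization gave -0.10 for 8-cell Trim43a. Without 1 gradient letter the ranges were -2.51 to 0.47 for 4-cell Trim43c (0.47 without A), -0.37 to 0.21 for 8-cell Trim43c (0.21 without A), -0.34 to 0.061 for the blastocyst sum and -0.37 to 0.036 for blastocyst Trim43a (both positive without C), and -0.0082 to 0.38 for the step of the sum from 8-cell to morula (negative without A).

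Counts of other Trim genes depended on the tool. Shares of all genes called are given for the main fit alone. The counts below therefore do not show whether other Trim genes differed from all genes under a setting. For pools, a pseudocount of 5 gave 16, 1, 1 and 5 calls in the consecutive steps that begin at the 2-cell stage and end at the blastocyst, against 25, 2, 3 and 11. DESeq2 gave 5, 9 and 19 in the last 3 steps, and edgeR 8 and 17 in the last 2. From 4-cell to 8-cell 1 was left with only these stages in the fit and 1 with quantile normalization. From 8-cell to morula a pseudocount of 0.5 gave 5, and 3 to 5 were called without 1 pool letter (5 without B and without C). For positions, against 5, 4 and 4 calls in 4-cell, 8-cell and morula gradients, DESeq2 gave 16, 11 and 7. At the 4-cell stage only that stage in the fit gave 0, fractions 8 to 10 against 1 to 3 gave 8, means of log values 2, quantile normalization 3, the 2-cell to blastocyst fit 2, and leaving out a gradient letter 2 to 8 (8 without A). At the 8-cell stage only that stage in the fit gave 0, and a pseudocount of 5, quantile normalization and edgeR gave 2 each. In morulae edgeR gave 0, the 2-cell to blastocyst fit 2, and leaving out a letter 2 to 4 (2 without B).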
